A study of Mus musculus with 6 samples.

Results

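The genes described here are 10 regulators of epithelial identity, chosen by name from the 34590 gene symbols of a count table. Esrp1 and Esrp2 are splicing factors. Grhl1, Grhl2, Ehf, Elf3, Ovol1, Klf5, Tfap2c and Trps1 are transcription factors. All 10 were found in the table, each once, and all 10 were among the 17345 genes that passed the filter on low counts.

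The RNA came from 3 pairs of contralateral inguinal glands (gland number 4) of 3 host mice, numbered 1 to 3. In each host the left gland carried WT.EGFP+ epithelium and the right gland Adamts18-/-.EGFP+ epithelium. Effects of genotype and of side cannot be told apart. The hosts were WT females whose own mammary epithelium was removed surgically when they were 3 weeks old. Donor epithelium of both genotypes expressed EGFP, a green fluorescent protein, from a chicken β-actin promoter that is active in many cell types, and the mutant donors were homozygous for an allele without the exons of the catalytic site of Adamts18, a secreted protease. The mutant and EGFP lines were kept on a C57BL/6JOlaHsd background. The grafts came from 3 donors in 3 independent experiments, so a difference between mice may also be one of donor or experiment. The age of the hosts when these glands were taken is not given in the sources used here. The glands are called WT and Adamts18-/- below.

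Esrp proteins bind RNA and favour the inclusion or skipping of exons in epithelial cells, and their best known substrate is Fgfr2, whose epithelial IIIb and mesenchymal IIIc forms differ in a pair of mutually exclusive exons and in the growth factors they bind. Grainyhead-like (Grhl) proteins bind enhancers of junction genes, Ehf and Elf3 are epithelium-specific members of the ETS family, and Ovol1 represses mesenchymal genes such as the Zeb factors, which in turn repress epithelial genes. Klf5 and Tfap2c act in progenitor and luminal mammary cells, and Trps1 is a GATA-type repressor abundant in mammary epithelium.

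The IIIb exon of Fgfr2, whose inclusion the Esrp proteins favour, is shown because it is the textbook target of these factors. It lies at chr7:130199758-130199905 on the minus strand in GRCm38 (GENCODE M21) and has 148 bases.
Fgfr2 IIIb exon: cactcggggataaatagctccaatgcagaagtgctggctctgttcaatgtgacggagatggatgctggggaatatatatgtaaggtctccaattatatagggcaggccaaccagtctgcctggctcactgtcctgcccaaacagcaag
The deposited table holds 1 count per gene, so it gives the sum of both forms of Fgfr2 and not the use of this exon.

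Library totals were 54059023 to 71595924 counts (WT) and 53875123 to 63307129 counts (Adamts18-/-). Levels are given as CPM, each count divided by the library total after edgeR's TMM correction for composition and put on 1 common scale. A count of 0 allows up to 3 counts, or 0.043 to 0.0574 CPM. Values of single glands are always given in the order of mice 1, 2 and 3. Adamts18 itself was listed at 252, 608 and 383 counts in WT and at 144, 295 and 202 counts in the Adamts18-/- glands. Its fitted log2 fold change was -0.83 (SE 0.19, unadjusted p = 0.00922, edgeR adjusted p = 0.987), it was lower in all 3 mice, and its count covers the whole gene, undeleted exons included. The study also reports Adamts18 transcripts from the stroma of WT fat pads that carry mutant epithelium. The part of each source in these counts was not tested.

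The labels describe sorted GFP+ mammary epithelial cells. Epithelial genes were well detected, and 24 pan-epithelial genes (keratins, claudins, Epcam, Cdh1 and others) summed to 1964 to 2719 CPM in WT and 1553 to 1907 CPM in Adamts18-/- glands. However, 6 fibroblast markers summed to 8015 to 10620 CPM in WT and 10260 to 10870 CPM in Adamts18-/- glands, and 6 adipocyte markers to 4602 to 9071 and 3587 to 9269 CPM. Over the 6 glands Col1a1 was at 1084 to 1435 CPM, Dcn at 1069 to 2998 CPM and Adipoq at 524.8 to 1622 CPM. Epcam was at 83.41 to 180 CPM. The libraries thus also held much RNA of genes that epithelial cells are not known for. The main text of the study speaks of profiling pairs of engrafted glands and names no sort there. For an epithelial gene at a lower level, fewer epithelial cells and less RNA per epithelial cell cannot be told apart in such bulk RNA.

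Transcripts of all 10 factors were detected in every gland, over a wide range of levels. Positions given below are those of GENCODE M21 on GRCm38, while the authors' counts were made on mm9. Set per kilobase of exon (union of the annotated exons of GENCODE M21), Ehf was highest with a mean of 17.2 ± 4.84 CPM per kb (SD, n = 6 glands), and Ovol1 lowest with 0.281 ± 0.085 CPM per kb. Between them, in this order, came Trps1 with 9.42, Elf3 with 9.05, Tfap2c with 7.49, Esrp1 with 7.05, Grhl1 with 5.69, Esrp2 with 5.33, Grhl2 with 2.61 and Klf5 with 1.13 CPM per kb. The ranges of neighbours in this order overlapped from Ehf down to Esrp2, while Esrp2 and Grhl2, Grhl2 and Klf5, and Klf5 and Ovol1 were apart in all 6 glands. Within single glands Ehf was above Trps1, Esrp1 above Grhl1 and Grhl1 above Esrp2 in 6 of 6 glands, whereas Tfap2c was above Esrp1 in only 3.

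**Figure D1:**
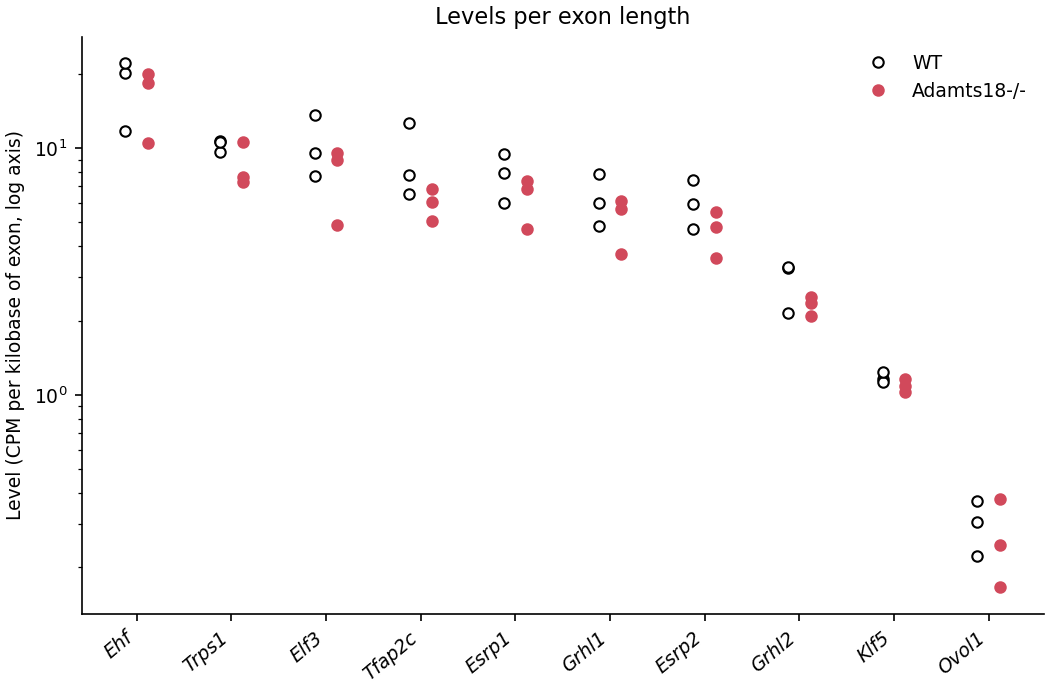
Level of each factor in CPM per kilobase of exon (log axis), with open circles for the 3 WT glands and filled circles for the 3 Adamts18-/- glands. Ehf is highest (mean 17.2), a broad middle group runs from Trps1 (9.42) to Esrp2 (5.33), and Klf5 (1.13) and Ovol1 (0.281) lie lowest.

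Comparing Adamts18-/- with WT glands, the fitted log2 fold change was negative for all 10 factors, but only Tfap2c passed the thresholds used here, a fold change under 0.8, or over the reciprocal of 0.8, at an unadjusted p under 0.05. This is 1 of 10, against 319 of the 17345 tested genes, 1.84%, called lower, and 0 of 10 against 1.17% called higher. By Benjamini-Hochberg adjusted p edgeR's quasi-likelihood test, blocked by mouse, called 0 genes (670 genes, 3.86%, had an unadjusted p under 0.05, and DESeq2 called 71), and each of the 10 factors had an adjusted p of 0.987. At the thresholds above, 1 of 10 factors was called lower by DESeq2, against 1.71% of tested genes lower and 1.96% higher, and 0 of 10 by edgeR without the block, against 0.721% and 1.26%. The median log2 fold change of the factors was -0.30, that of all tested genes was 0.00065, and 49.8% of tested genes had a negative value. The factors share cells and libraries and are not independent of each other.

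**Figure D2:**
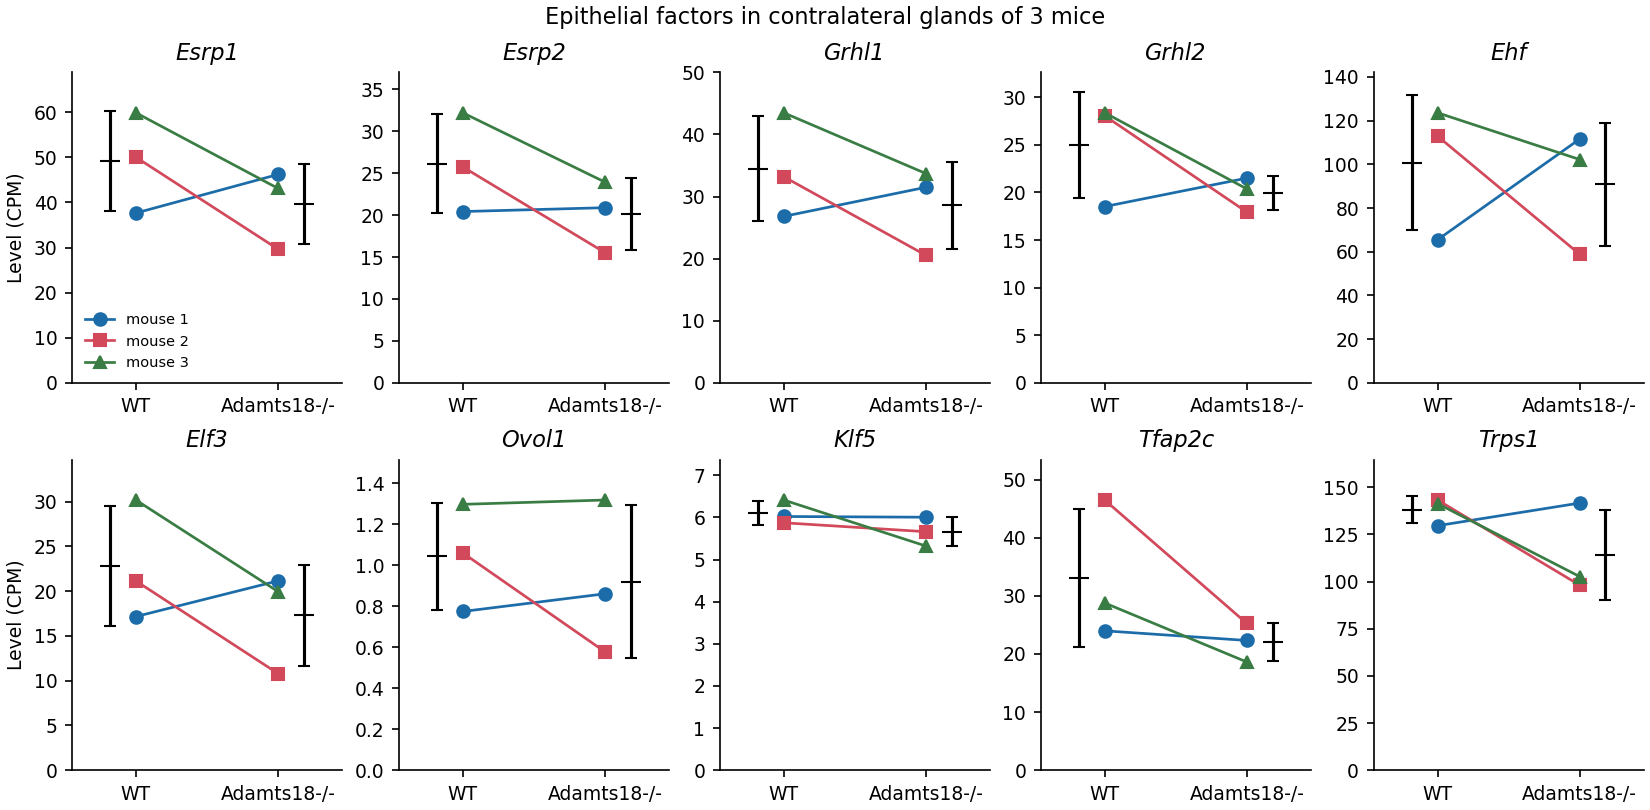
Level of each factor in CPM (vertical axes from 0, scaled to each gene), with lines joining the contralateral glands of mice 1, 2 and 3 and black bars for the mean ± SD of the 3 glands of a group. Lines of mice 2 and 3 descend for most factors, those of mouse 1 do not, and the WT and Adamts18-/- glands overlap for all 10.

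Tfap2c (ENSMUSG00000028640, chr2:172549593-172558622, plus strand), an AP-2 factor of luminal progenitors, was the only factor past the thresholds, at an edgeR adjusted p of 0.987. Its level was 23.97, 46.47 and 28.76 CPM in WT and 22.31, 25.23 and 18.60 CPM in the Adamts18-/- glands. The WT gland of mouse 2 stood highest, each Adamts18-/- gland was below its contralateral WT gland, and the groups still overlapped, as the Adamts18-/- gland of mouse 2 was above the WT gland of mouse 1. The fold change was 0.688, or -0.54 on the log2 scale (SE 0.17, 95% interval -0.98 to -0.10, unadjusted p = 0.0255). Without the mouse as a block its unadjusted p was 0.0755 at -0.58, and without mouse 2 it was 0.112 at -0.37.

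The splicing factors did not pass the test. Esrp1 (chr4:11331933-11386783, minus strand) was at 37.66, 50.04 and 59.89 CPM in WT and at 46.22, 29.65 and 43.12 CPM in the Adamts18-/- glands. Esrp2 (chr8:106130319-106136974, minus strand) was at 20.42, 25.74 and 32.19 CPM in WT and at 20.88, 15.53 and 23.93 CPM in Adamts18-/- glands. In both, the Adamts18-/- gland was below WT in mice 2 and 3 and above it in mouse 1, and the groups overlapped. The fitted log2 fold changes were -0.31 for Esrp1 (SE 0.22, unadjusted p = 0.214) and -0.37 for Esrp2 (SE 0.16, unadjusted p = 0.0737), with 95% intervals of -0.88 to 0.26 and -0.80 to 0.05.

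The Grainyhead-like factors followed the same course. Grhl1 (chr12:24572283-24617391, plus strand) was at 26.80, 33.19 and 43.48 CPM in WT and at 31.49, 20.54 and 33.70 CPM in Adamts18-/- glands. Grhl2 (chr15:37233036-37363569, plus strand), which keeps junction genes such as Cdh1 expressed, was at 18.52, 28.05 and 28.37 CPM in WT and at 21.51, 17.94 and 20.37 CPM in Adamts18-/- glands. For both genes mouse 1 again had the higher level on the Adamts18-/- side, and the WT gland of mouse 1 was the lowest WT gland. Fitted values were -0.28 for Grhl1 (SE 0.19, unadjusted p = 0.212) and -0.30 for Grhl2 (SE 0.19, unadjusted p = 0.173).

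The ETS factors differed most between mice. Ehf (chr2:103263433-103303278, minus strand) was at 65.50, 112.9 and 123.6 CPM in WT and at 111.6, 58.82 and 102.2 CPM in Adamts18-/- glands. Elf3 (chr1:135253575-135258568, minus strand) was at 17.16, 21.14 and 30.18 CPM in WT and at 21.15, 10.79 and 19.95 CPM in Adamts18-/- glands. The difference within mice for Ehf thus went from 0.77 in mouse 1 to -0.94 in mouse 2 on the log2 scale, the widest spread of the 10 factors. The fitted change was -0.15 for Ehf (SE 0.34, unadjusted p = 0.672) and -0.42 for Elf3 (SE 0.26, unadjusted p = 0.171).

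Ovol1 and Klf5, the factors with the lowest levels, were nearest to 0 with Ehf. Ovol1 (chr19:5549136-5560646, minus strand) rested on 54, 65 and 73 counts in WT and 45, 35 and 81 counts in Adamts18-/- glands, or 0.774, 1.06 and 1.297 against 0.861, 0.578 and 1.32 CPM. Klf5 (chr14:99298691-99315036, plus strand), a zinc finger factor of epithelial progenitors, was at 6.02, 5.87 and 6.41 CPM in WT and at 6.004, 5.66 and 5.32 CPM in Adamts18-/- glands. Klf5 was the most even of the factors, with the smallest SD over mice of the within-mouse difference, 0.14 on the log2 scale. The fitted values were -0.22 for Ovol1 (SE 0.28, unadjusted p = 0.470) and -0.11 for Klf5 (SE 0.14, unadjusted p = 0.467, 95% interval -0.47 to 0.25).

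Trps1 (chr15:50654752-50890463, minus strand) had the highest CPM of the 10 factors, and its exons are also the longest. It was at 129.6, 143.2 and 141.3 CPM in WT and at 141.6, 98.03 and 102.6 CPM in Adamts18-/- glands. The WT glands lay close together, the Adamts18-/- glands of mice 2 and 3 were below all of them, and that of mouse 1 was within their range. The fitted value was -0.29 (SE 0.15, unadjusted p = 0.117).

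Taking the mice one by one, the factors shared a course. In mouse 1, 8 of 10 were higher in the Adamts18-/- gland, with a median difference of 0.18 on the log2 scale. In mouse 2 all 10 were lower, with a median of -0.74, and in mouse 3, 9 were lower, with a median of -0.44. Esrp1, Esrp2, Grhl1, Grhl2, Ehf, Elf3 and Trps1, 7 of the 10, were above WT in mouse 1 and below it in mice 2 and 3, a course that 9.59% of tested genes had and that was picked out after the values were seen. Below WT in all 3 mice were 2 factors, Klf5 and Tfap2c, against 12.7% of tested genes, and 0 of 10 had all Adamts18-/- glands below all WT glands, against 2.63%.

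The 24 pan-epithelial genes were set beside the factors. Their mean difference was 0.01 in mouse 1, -0.68 in mouse 2 and -0.45 in mouse 3. Of the 24, 13 were above WT in mouse 1 and below it in mice 2 and 3, and 11 were lower in all 3 mice. Set against this mean, Tfap2c was the 1 factor that stayed below it in all 3 mice, by -0.12, -0.20 and -0.18 on the log2 scale (mean -0.17 ± 0.044, SD, n = 3). The share of all tested genes that stayed below this mean was not counted, so this 1 of 10 is a description and carries no test. Ehf was 0.75 above it in mouse 1 and Klf5 0.63 above it in mouse 2. When the libraries were scaled to these 24 genes instead of by TMM, which moved the median of all tested genes by 0.37, the median of the factors was 0.07, 3 of 10 values stayed negative and Tfap2c was at -0.17 (unadjusted p = 0.573). On this scaling 0 of 10 factors passed, against 0.231% of tested genes called lower and 8.84% higher. The part of epithelial content in the differences was not tested apart from this scaling.

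**Figure D3:**
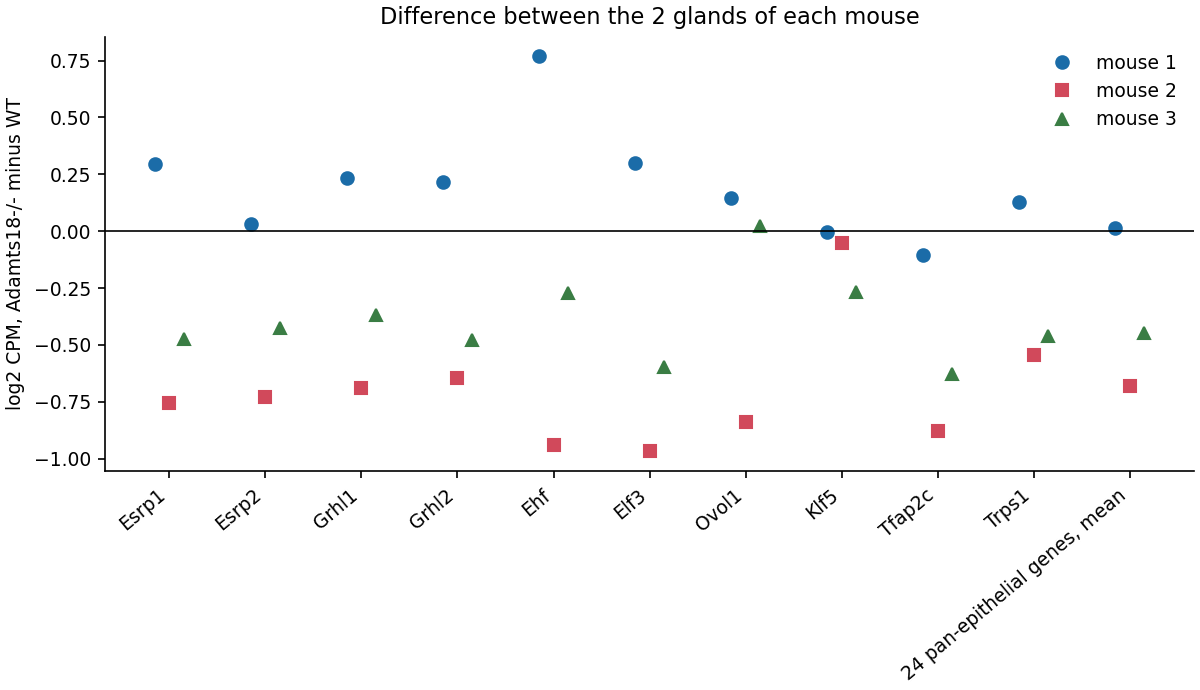
Difference in log2 CPM, Adamts18-/- minus contralateral WT gland, for each factor and for the mean of 24 pan-epithelial genes, with 1 symbol per mouse and a line at 0. Points of mouse 2 lie between -0.97 and -0.05 and those of mouse 1 mostly above 0, with Ehf of mouse 1 at 0.77.

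Without mouse 1, 8 of 10 factors passed the thresholds as lower, all but Ovol1 and Klf5, with a median of -0.57, while of all 17596 genes then tested 481, or 2.73%, were called lower and 1.03% higher. The fit then held 2 pairs, and the course of mouse 1 was known before it was left out. Without mouse 2, 0 factors passed and their median was -0.13, against 1.22% of all tested genes called lower and 1.82% higher. Without mouse 3, 1 passed, Tfap2c (-0.49, unadjusted p = 0.0491), with a median of -0.22, against 1.65% called lower and 3.34% higher.

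Markers of skeletal muscle moved between glands in another way. Summed over 7 genes, among them Myh4 and Ckm, they were at 260.6, 758.2 and 2471 CPM in WT and at 9790, 9620 and 1663 CPM in the Adamts18-/- glands. The sums were higher on the Adamts18-/- side in mice 1 and 2 and lower in mouse 3, and 0 of the 7 genes passed the edgeR test or had an unadjusted p under 0.05, while 7 passed as higher without mouse 3, 5 without the block and 5 in DESeq2. Their part in the values of the factors was not tested. The sum of 7 immune markers stood out in the Adamts18-/- gland of mouse 3 with 1026 CPM, against 214.8 to 435.7 CPM in WT glands and 223.2 and 281.1 CPM in the other Adamts18-/- glands. Ptprc, Cd79a, Ms4a1, Cd3e and Cd3d were above the contralateral WT gland there, Ptprc at 549.2 against 203.5 CPM. Cd68 (60.74 against 67.09 CPM) and Adgre1 (61.7 against 70.91 CPM) were below it.

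Levels of related factors moved together, so their ratios were compared within each gland. The Esrp1 to Esrp2 ratio differed between Adamts18-/- and WT glands by 0.26, -0.03 and -0.05 on the log2 scale in mice 1, 2 and 3 (mean 0.06 ± 0.17, SD, exact sign-flip permutation test over mice, two-sided p = 1). That of Grhl2 to Grhl1 differed by -0.02, 0.05 and -0.11 (mean -0.03 ± 0.079, exact permutation p = 0.75). The Ehf to Elf3 ratio was higher in the Adamts18-/- gland of all 3 mice, by 0.47, 0.03 and 0.32 (mean 0.27 ± 0.22, exact permutation p = 0.25). With 3 mice 0.25 is the smallest p this test can give, so none of the 3 ratios could pass a threshold of 0.05, before or after adjustment. A ratio within a gland is independent of the scaling between libraries.

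Over the 6 glands, Esrp1, Esrp2, Grhl1 and Elf3 were alike in log2 CPM, with Pearson's r from 0.95 to 0.98. Tfap2c and Klf5 stood apart, with r from 0.06 (Ovol1) to 0.69 (Grhl2) for Tfap2c and from 0.06 to 0.79 for Klf5. These values describe 6 glands that share hosts and epithelial content and carry no test. Among 10714 genes with a mean of at least 10 CPM, the most similar to Esrp1 were Hist2h2be, AI428936 and Epcam (r of at least 0.99 each), the last an epithelial adhesion molecule, and those most similar to Esrp2 were Lsr, Tmc4 and Marveld3 (0.99 each), of which Lsr and Marveld3 are tight junction proteins. Grhl1 was nearest to Marveld3, Ap1m2 and Tmc4 (0.99 each), Grhl2 to Plb1, Ppap2c and Rnpep (0.98 to 0.99), Elf3 to AI428936, Adss and Klc3 (0.99 each) and Ehf to Guf1, Mbtd1 and Muc4 (0.97 to 0.98). The nearest genes to Tfap2c were Fat1, Csdc2 and Snai2 (at least 0.99 each), and Snai2 is a transcription factor of basal mammary cells. All 10 factors had such near neighbours among 10714 genes over 6 glands, so these names assign no factor to a cell type. Trps1 was nearest to Fmn1, Camsap3 and Mpzl1 (0.98 to 0.99), Klf5 to Pitpnm3, Fam118a and Sirt5 (at least 0.98 each) and Ovol1 to Araf, 2810021B07Rik and Cdc14a (0.99 each).

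**Figure D4:**
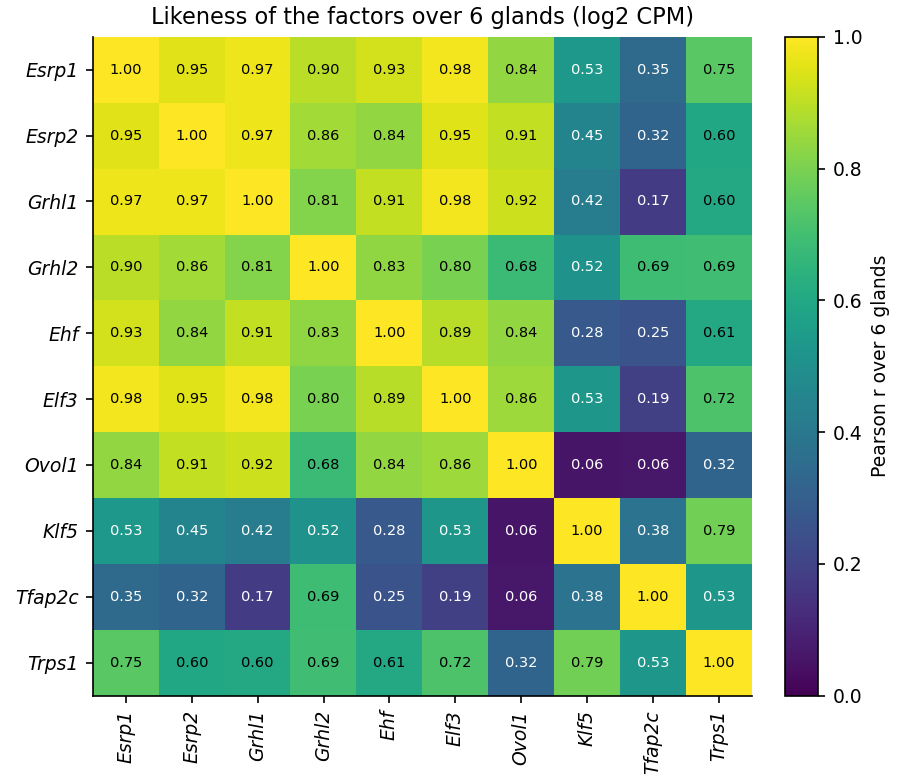
Pearson's r of log2 CPM over 6 glands for each pair of the 10 factors, written in each cell and coloured from 0 to 1. Esrp1, Esrp2, Grhl1 and Elf3 form a block from 0.95 to 0.98, and the rows of Klf5 and Tfap2c hold values down to 0.06.

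Lists of genes around the factors were counted at the same thresholds, to be read against the 1.84% of tested genes called lower. Of 13 relatives and other epithelial transcription factors, 6 fell, 12 had a negative value and the median was -0.46. Among those that fell were Tfap2b (-0.60, SE 0.14, unadjusted p = 0.00848), Elf5 (-0.57, SE 0.20, unadjusted p = 0.0389), Gata3 (-0.50, SE 0.18, unadjusted p = 0.0384), Foxa1 (-0.46, SE 0.10, unadjusted p = 0.00737) and Trp63 (-0.37, SE 0.11, unadjusted p = 0.0193). Elf5 directs the secretory luminal lineage, Gata3 and Foxa1 the luminal and hormone-sensing lineage, and Trp63 the basal lineage. The list gave 2 lower without the block, 10 without mouse 1, 4 without mouse 2, and 3 lower with Klf4 higher without mouse 3. None passed when the libraries were scaled to the pan-epithelial genes. Klf4 was the 1 relative with a positive value, 0.11 (SE 0.24, unadjusted p = 0.658).

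Genes that Grhl2 is known to keep on gave 3 of 12 lower, St14 (-0.43, unadjusted p = 0.0459), Spint1 (-0.47, unadjusted p = 0.0240) and Dsp (-0.43, unadjusted p = 0.00598). The first of these is a membrane protease, the next its inhibitor, and Dsp encodes a desmosome protein. All 12 had negative values, with a median of -0.39, and 10 of them are also on the pan-epithelial list and 1 is Esrp1. The count was 11 without mouse 1, 1 without mouse 2 or without mouse 3, 1 without the block and 5 in DESeq2. It was 0 under the pan-epithelial scaling, which centres those 10 shared genes and so largely fixed this count in advance. Of the 24 pan-epithelial genes 7 fell, namely these 3 and the keratins Krt7, Krt8, Krt18 and Krt19, from -0.39 for Krt7 to -0.62 for Krt19. This count became 20 without mouse 1, 2 without mouse 2, 5 without mouse 3 and 4 without the block. Epcam (-0.38, unadjusted p = 0.184) and Cdh1 (-0.32, unadjusted p = 0.205), encoding E-cadherin, did not pass.

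Among cell type markers, 8 of 9 basal genes fell, all but Krt5, from -0.34 for Mylk, a kinase of the contractile apparatus, to -0.63 for Cnn1, a smooth muscle protein. Of these 9 genes 0 passed without the block or under the pan-epithelial scaling, and 7, 5 and 6 passed without mice 1, 2 and 3. Of 7 hormone-sensing luminal markers 3 fell, Cited1 (-1.06, SE 0.07, unadjusted p = 4.44e-05), Prlr (-0.59, SE 0.12, unadjusted p = 0.00607) and Foxa1, and the median was -0.27. Esr1 (-0.02), Pgr (-0.27), Ly6a (0.03) and Areg (0.61) did not pass. Areg was called higher without mouse 1 and under the pan-epithelial scaling, where 1 of the 7 was called lower. Lower calls numbered 2 without the block and 3 with any 1 mouse left out. Of 7 secretory luminal markers tested 1 fell, Elf5, where 7 did without mouse 1 and 0 without mouse 2 or mouse 3. Of 6 fibroblast, 6 adipocyte, 6 endothelial and 7 immune markers 0 passed the edgeR test in either direction, and 0 had an unadjusted p under 0.05, with medians of 0.13, -0.13, -0.15 and 0.25. DESeq2 called 1 of them, the fibroblast gene Col3a1, higher, and limma-voom 1, the immune gene Ms4a1. Without mouse 2, 1 adipocyte marker was called lower, and without mouse 3, 1 immune marker. Scaling to the pan-epithelial genes called Col3a1, Cd79a, Ms4a1 and Ptprc higher, where 8.84% of tested genes were called higher.

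Genes with exons under Esrp control gave a different count. Fgfr2 fell, while the other 11 of 12 did not pass, and the median was -0.05. Fgfr2 was at 141.2, 127.7 and 198.5 CPM in WT and at 108.8, 74.58 and 115.5 CPM in the Adamts18-/- glands. Every Adamts18-/- gland was below every WT gland, as for 2.63% of tested genes. The fitted value of Fgfr2 was -0.64 (SE 0.11, unadjusted p = 0.00252, edgeR adjusted p = 0.987), near that of the pan-epithelial gene Krt19 (-0.62). Under the pan-epithelial scaling 0 of the 12 genes passed. Cd44, whose variable exons are an Esrp substrate, was at 0.09 (SE 0.10, unadjusted p = 0.409) and Ctnnd1, encoding p120-catenin, at -0.23 (SE 0.10, unadjusted p = 0.0704). Such gene totals carry no information on the use of the exon printed above, which was not analysed here.

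Other splicing regulators gave 0 of 15 past the thresholds in edgeR in either direction, with a median of 0.02. They ranged from -0.18 (Rbm47) to 0.18 (Mbnl1), and 0 of the 15 had an unadjusted p under 0.05. The mean difference of these 15 genes was 0.05, -0.02 and 0.001 in mice 1, 2 and 3, where that of Esrp1 and Esrp2 was 0.16, -0.74 and -0.45.

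Mesenchymal transcription factors, many of them repressors of the epithelial programme, gave 0 of 10 past the thresholds in edgeR, and 0 with an unadjusted p under 0.05, with a median of -0.07. Snai2 was called lower by limma-voom (-0.36), without the filter on low counts (-0.36) and without mouse 1 (-0.51), and Twist2 without mouse 2 (-0.61). Zeb1 was at 0.10 (SE 0.08, unadjusted p = 0.235) and Zeb2 at 0.08 (SE 0.09, unadjusted p = 0.380), and Snai2 at -0.35 (SE 0.14, unadjusted p = 0.0560). Zeb1 averaged 78.70 CPM in WT and 84.67 CPM in Adamts18-/- glands and Zeb2 131.2 and 139.1 CPM, in libraries in which fibroblast markers were abundant.

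**Figure D5:**
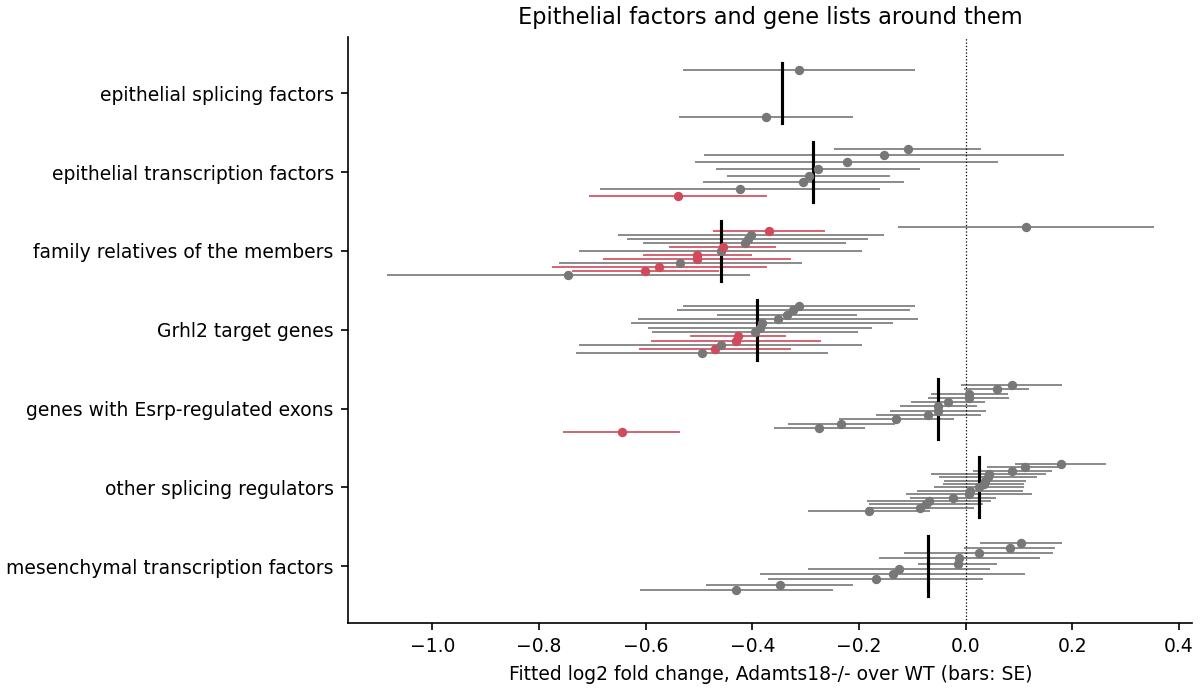
Fitted log2 fold change (Adamts18-/- over WT) of the genes of 7 lists, with bars for the SE, red for genes past the thresholds, and a vertical black mark at the median of each list. Epithelial lists lie left of 0 with the exception of Klf4 (0.11), with medians from -0.46 to -0.29, and other splicing regulators centre on 0.02.

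Promoter sequences (RefSeq, GRCm38.p6, from 250 bases before to 50 bases after the start site) were at hand for 2 of the 10 factors, Elf3 with 1 window and Grhl1 with 2. They were searched on both strands for the letters AACCGGTT of Grainyhead factors, CACCTG or CAGGTG of Zeb and Snail factors, GCCNNNGGC of AP-2 factors and GGAAG or CTTCC of ETS factors, which 0.146%, 20.2%, 16.6% and 71.4% of 32851 promoter windows hold. The Elf3 window held CACCTG, 140 bases before the RefSeq start site, and none of the other words. The part of that window upstream of the RefSeq start site, chr1:135258473-135258722 on the minus strand, is shown with the match in capitals. It is the one window of these genes that held this word. In GENCODE M21 the gene reaches chr1:135258568, so the printed stretch overlaps its 5' end. The distance of the word from the start thus depends on the annotation.
Elf3 upstream: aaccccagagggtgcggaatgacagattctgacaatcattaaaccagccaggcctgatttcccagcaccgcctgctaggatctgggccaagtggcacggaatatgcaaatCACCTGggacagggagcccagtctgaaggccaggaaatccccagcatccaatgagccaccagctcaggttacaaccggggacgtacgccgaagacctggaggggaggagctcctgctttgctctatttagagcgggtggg
One Grhl1 window, chr12:24572037-24572336, held an AP-2 word, GCCTTGGGC, 82 bases before its start site, and the other, chr12:24580469-24580768, held ETS words 201 and 21 bases before its own. A match to letters does not show that a factor binds there, and these counts bear on no factor's activity.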

How the data were processed

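The deposited table of the authors held raw read counts by gene symbol for 6 libraries of single-end reads. Per the submitters' processing notes, bcl2fastq 2.18, TopHat2 2.0.11, featureCounts 1.6.2 and edgeR were used and the build was mm9. Their roles, the annotation and the use of strand in counting are not given in the sources used here. Reads of overlapping genes may thus be mixed.

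Samples were grouped by the genotype and mouse number of the labels. Here, counts were filtered by edgeR's filterByExpr with the group, scaled by TMM and tested with the quasi-likelihood test of edgeR 4.0.16 in R 4.3.3, blocking by mouse, and Benjamini-Hochberg adjustment ran over all 17345 genes. As in the study, calls needed a fold change under 0.8 or over its reciprocal and an unadjusted p under 0.05. The median biological coefficient of variation was 16.3%, which limits what 3 pairs can show, and limits from counts cover counting error only. CPM used TMM factors and log2 CPM a prior count of 2. Contralateral glands come from 1 host, and their deviations from the group means correlated across genes (0.512, 0.505 and 0.639 in mice 1, 2 and 3), so the pairing was kept. Exons, lengths and positions came from GENCODE M21 (GRCm38) and promoters from RefSeq. The scripts were tested on simulated data.

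The 10 factors and the gene lists were chosen with earlier results of these data known. Named genes were all 10 factors, every list gene past the thresholds, Fgfr2, Zeb1, Zeb2, Epcam, Cdh1 and Adamts18, and the 3 genes of at least 10 CPM most correlated with each factor. Klf4, Cd44, Ctnnd1, Rbm47, Mbnl1, Snai2, Twist2, Krt5 and the markers Col1a1, Col3a1, Dcn, Adipoq, Myh4 and Ckm were named after their values were seen. So were the markers Esr1, Pgr, Ly6a, Areg, Ptprc, Cd79a, Ms4a1, Cd3e, Cd3d, Cd68 and Adgre1. A list gene past the thresholds is not reported here by name but was kept in all fits and counts. Alternatives were DESeq2 1.42.0, voom (limma 3.58.1), dropping the mouse term, RLE and library size scaling, scaling to 24 pan-epithelial genes, no filter, at least 10 counts in every library, a prior count of 0.5 for the ratios, and each mouse left out.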

Additional observations from a re-analysis of the deposited data

How the results depend on the processing

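Of 110 values of the factors under the alternatives, 90 kept their direction and their side of the threshold, and Tfap2c stayed past the thresholds in 8 of 11 alternatives, with adjusted p from 0.432 to 1. Without the replicate block 0 of the 10 factors passed, their median was -0.29, and 7 of the 74 other genes on the lists around them passed in place of 14. The pairing comes from shared hosts, and host, donor and experiment cannot be told apart in it. The fit without this pairing calls 125 genes lower and 218 higher of all tested. Scaled to the 24 pan-epithelial genes, 0 factors and 0 list genes passed. Those 24 genes are on the lists and this scaling centres them, so the absence of calls among them was largely fixed in advance. With it, positive values came out for Esrp1 (0.0608), Grhl1 (0.10), Grhl2 (0.0697), Ehf (0.22), Ovol1 (0.15), Klf5 (0.26) and Trps1 (0.0783). All tested genes then gave 40 called lower and 1533 higher. With no filter on low counts 2 factors passed, Esrp2 beside Tfap2c (unadjusted p = 0.0492). DESeq2 called 297 genes lower and 340 higher, and limma-voom 343 and 345. Leaving out 1 mouse at a time gave 0 to 8 factors past the thresholds, medians of -0.57 to -0.13, and 8 to 33 list genes, with the most calls without mouse 1 and the fewest without mouse 2. The 33 list genes without mouse 1 include Esrp1, a Grhl2 target that is also counted among the 8 factors. All tested genes gave 481 lower and 182 higher without mouse 1, 214 and 319 without mouse 2, and 286 and 581 without mouse 3. The value of Ehf ran from -0.61 without mouse 1 and that of Ovol1 from -0.41. Without mouse 2, Ehf (0.25) and Ovol1 (0.0857) were positive. The cause of these changes was not tested. Scaling to library size or by RLE, and at least 10 counts in every library, left 1 factor past the thresholds, Tfap2c. Ovol1, with 35 to 81 counts per library, is the factor for which depth limits precision most.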
